A study of Mus musculus with 16 samples.

Results

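The classical cadherins and the catenins that bind them were followed in mouse embryonic stem (ES) cells and in sorted endoderm and mesoderm cells derived from them. The set held 10 genes of 18716 with a probe set of their own among those tested: the type I cadherins Cdh1 (E-cadherin), Cdh2 (N-cadherin) and Cdh3 (P-cadherin), the type II cadherins Cdh5 (VE-cadherin), Cdh6 (K-cadherin) and Cdh11 (OB-cadherin), and the catenins Ctnnb1, Ctnnd1, Ctnna1 and Ctnna2. The members were chosen by name, with earlier results of these data known. Each was read from its 1 probe set that carries no other gene symbol.

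Cadherins are transmembrane proteins that join neighbouring cells in the presence of calcium, each mostly binding its own kind on the next cell. Inside the cell the tail of a classical cadherin binds p120-catenin (Ctnnd1) near the membrane and β-catenin (Ctnnb1) further along, and β-catenin carries α-catenin (Ctnna1, or Ctnna2 in neurons), which couples the junction to actin. β-catenin is also the messenger of the canonical Wnt pathway. In the gastrulating embryo, cells that leave the epiblast as mesoderm are known for exchanging E-cadherin for N-cadherin.

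Gene expression was measured on 16 Affymetrix Mouse Gene ST 1.0 arrays, in 8 groups of 2 biological replicates. All groups came from one dual-reporter line, TGFP/+; Foxa2tagRFP/+, which the labels place on E14.1 cells of 129/Ola background. Every group thus carries 1 Foxa2 allele fused to tagRFP. It also carries 1 T allele whose expression, by the paper's account, is disrupted by a GFP insertion. ES cells were grown on mitomycin-treated fibroblast feeders and were not sorted. The other groups were sorted after differentiation on Wnt3a-expressing feeders. Endoderm medium held 12 ng/ml activin A. DEP denotes endoderm progenitors (Foxa2+; T-; CD24 low) and DE definitive endoderm (Foxa2+; T-; CD24 high), each sorted on days 2 and 4 (D2 and D4). Mesoderm medium was the same with added Bmp4 at 7.5 ng/ml and activin A at 3 ng/ml. MP denotes mesoderm progenitors (Foxa2-; T+; CD24 low) on days 2 and 4, and MES mesoderm (Foxa2-; T+; CD24 negative) on day 4. Medium and lineage cannot be told apart in this design, and a comparison of DE with MES also changes the CD24 gate.

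Levels are log2 RMA values (robust multichip average, a background-corrected and quantile-normalized summary of the probes of each set), and a difference of 1 is a 2-fold change. A difference passed when its absolute log2 value was above 1 and its limma p, adjusted by Benjamini-Hochberg over 32000 probe sets, was below 0.05. "Higher", "lower", "rose" and "fell" are used for differences that passed. Levels of different probe sets cannot be compared with each other. In cell populations such as these, fewer cells of a type and less RNA per cell cannot be told apart.

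The sort was visible in the RNA. Foxa2 was at 10.00 to 11.41 in the DEP and DE arrays and at 7.32 to 8.26 in the others. Cd24a was highest in DE D4 (mean 13.40) and lowest in MES D4 (mean 11.08), but its DE minus DEP difference, 0.62 on day 2 and 0.46 on day 4, did not pass. Replicates correlated at 0.987 to 0.994 over probe sets, lowest in DE D2, where 499 probe sets differed by more than 1 between the 2 arrays against 127 to 394 in the other groups. DE D2 replicate 2 stood above replicate 1 for Col1a1 (10.40 and 8.14), and in the mean level of 13 fibroblast markers (7.32 and 6.97), 9 visceral endoderm markers (7.68 and 6.96) and 8 naive pluripotency markers (8.03 and 7.33). The ES arrays had fibroblast markers at a mean of 9.41 and 9.13, against 6.85 to 7.32 in the 14 sorted arrays. The feeder-fibroblast gene Postn was at 10.36 and 10.18 in ES cells and at 5.14 to 5.41 in sorted cells. The part of these differences in the cadherin results was not tested. Values without DE D2 replicate 2 are given where results rest on it.

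**Figure D1:**
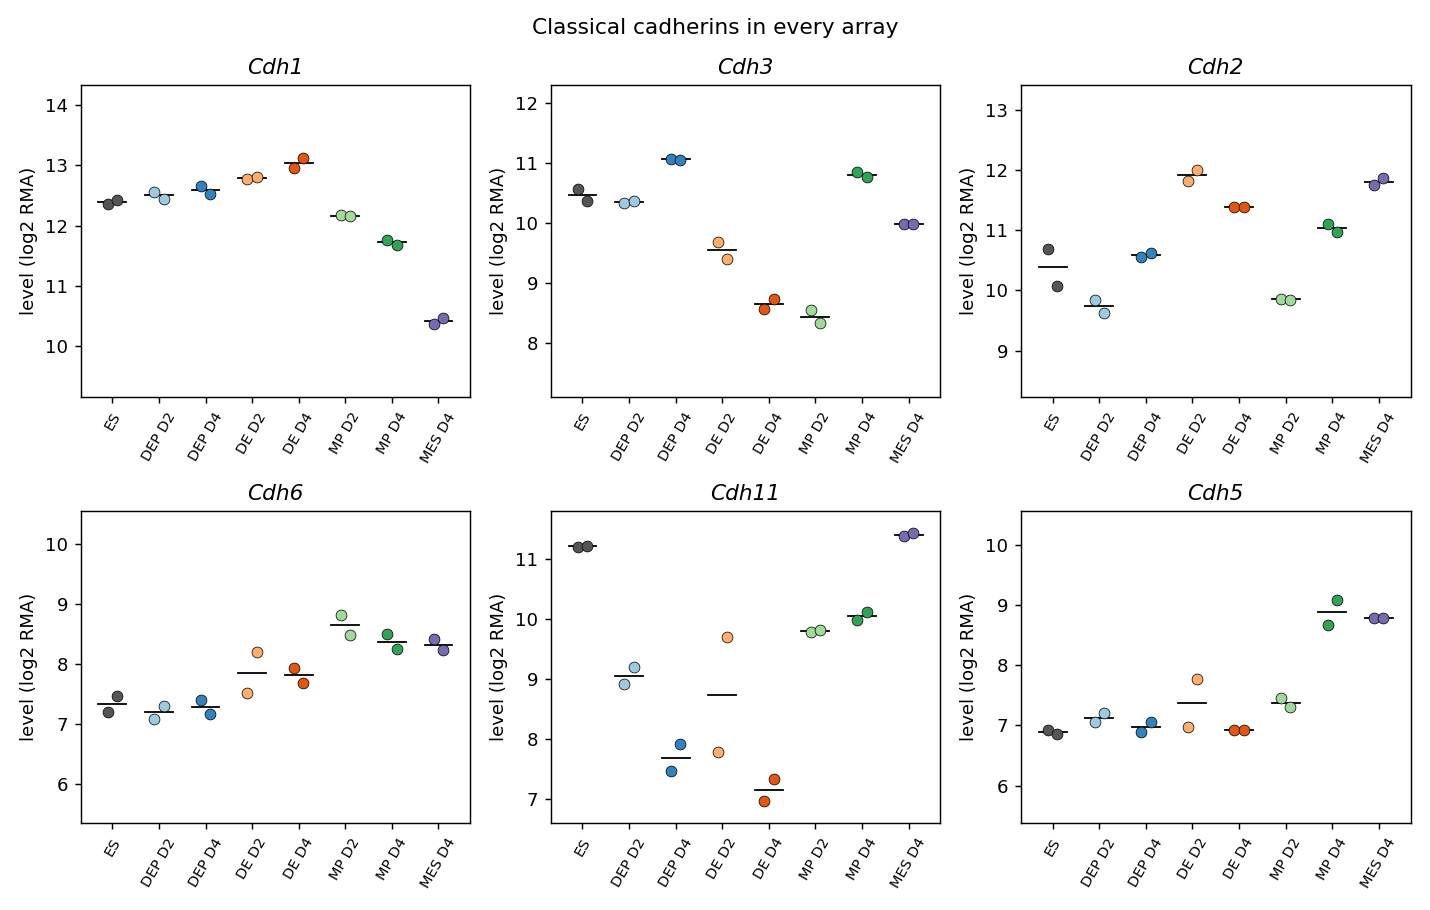
Levels of the 6 cadherins in every array (y axis, log2 RMA, same span in each panel) by group (x axis), with a point per array and a line at the mean of 2 arrays. Cdh1 ran from 13.04 in DE D4 down to 10.41 in MES D4, Cdh11 spanned 4.24 between MES D4 and DE D4, and the DE D2 pair lay apart for Cdh11.

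Among the 10 genes, the differences that passed all lay in the cadherins. Over 16 comparisons of 2 groups, 30 of 96 cadherin tests passed and 0 of 64 catenin tests. The share of all 32000 probe sets that passed in these comparisons was 0.294% to 8.76%. The comparisons reuse the same arrays and the members were chosen with earlier results known, so these counts are descriptions. Cdh11 passed in 7 comparisons, Cdh3 in 6, Cdh2 and Cdh5 in 5 each, Cdh6 in 4 and Cdh1 in 3. Each cadherin had its own order of groups.

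Cdh1 encodes E-cadherin, the cadherin of the epiblast and of most epithelia. Its level was 12.97 and 13.12 in DE D4, 12.77 and 12.80 in DE D2, 12.66 and 12.52 in DEP D4, and 12.56 and 12.45 in DEP D2. ES cells were at 12.37 and 12.43, MP D2 at 12.17 and 12.15, MP D4 at 11.76 and 11.68, and MES D4 at 10.36 and 10.46. Foxa2+ groups all lay above ES cells and T+ groups all below, and of the neighbours in this order only DEP D4 and DEP D2 overlapped in their arrays. Cdh1 was 6.20-fold higher in DE D4 than in MES D4 (log2 difference 2.63, SE 0.09, limma adjusted p = 5.75e-09). Visceral endoderm markers were also highest in DE D4, at a mean of 8.53 and 8.51 for 9 genes against 6.70 to 7.70 in the other arrays, and Apoa1, Apob and Rbp4 of these were higher than in MES D4 (4.26, 2.63 and 2.35). Their part in the DE D4 levels of Cdh1 and the other members was not tested. Cdh1 was lower in MES D4 than in ES cells (-1.99, SE 0.09, adjusted p = 6.06e-08) and than in MP D4 (-1.31, adjusted p = 2.51e-05). The remaining differences were below the 2-fold threshold: DE D4 was at 0.65 relative to ES cells (95% interval 0.45 to 0.84), and DEP D4 was at 0.87 relative to MP D4 (0.67 to 1.07). For DEP D2 against MP D2, the 2 progenitor groups at the same CD24 gate, it was at 0.34 (0.14 to 0.54, adjusted p = 0.0898). The test of whether the DEP minus MP difference changed with the day gave 0.53 (adjusted p = 0.0667), which did not pass. Cdh1 in MP D4 was at -0.67 relative to ES cells (adjusted p = 0.000244). Relative to MP D2 it was at -0.44 (adjusted p = 0.0135). Both differences missed the fold threshold only.

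Cdh2 encodes N-cadherin, which is known from mesoderm, neural tissue and nascent endoderm. Its level was 11.83 and 12.01 in DE D2, 11.75 and 11.87 in MES D4, 11.39 and 11.39 in DE D4, and 11.11 and 10.98 in MP D4. DEP D4 was at 10.56 and 10.62, ES cells at 10.69 and 10.07, MP D2 at 9.86 and 9.85, and DEP D2 at 9.84 and 9.63. DE D2 and MES D4 overlapped at the top of the order, DEP D4 overlapped with ES cells, and the ES pair was the least alike. Cdh2 was higher than in ES cells in DE D2 (1.53, SE 0.16, adjusted p = 3.45e-05), MES D4 (1.43, adjusted p = 6.78e-05) and DE D4 (1.01, adjusted p = 0.000564). The last of these passed narrowly and was at 0.70 without ES replicate 2. Between DE D4 and MES D4 the difference did not pass (-0.42, 95% interval -0.77 to -0.06, adjusted p = 0.102), so an N-cadherin difference of 2-fold between the lineages lay outside the interval.

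Within endoderm, Cdh2 separated the CD24 gates on day 2. It was 4.53-fold higher in DE D2 than in DEP D2 (2.18, SE 0.16, adjusted p = 6.62e-06), and at 2.09 (adjusted p = 0.000124) without DE D2 replicate 2. On day 4 the same difference was 0.80 and did not pass. The change of the difference from day 2 to day 4 was -1.38 (SE 0.23, adjusted p = 0.016). When any of 5 arrays was left out it no longer passed (adjusted p from 0.0596 to 0.0738), at values of -1.27 to -1.41. In mesoderm progenitors Cdh2 rose from day 2 to day 4 (1.19, adjusted p = 0.00109).

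**Figure D2:**
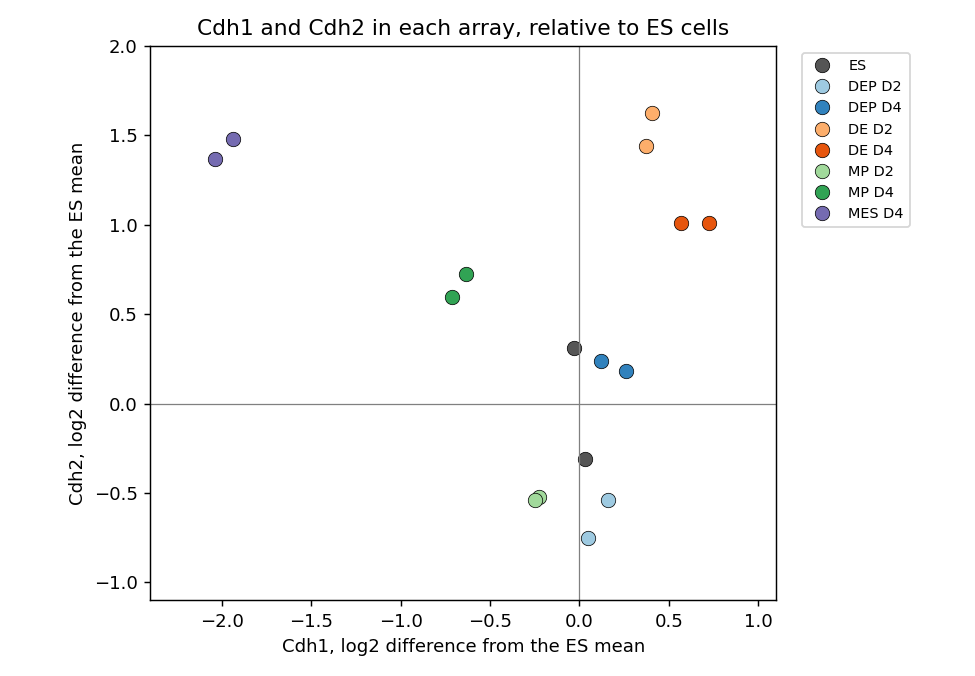
Log2 difference from the ES mean of Cdh1 (x axis) and of Cdh2 (y axis), with a point per array coloured by group. MES D4 lies at low Cdh1 and high Cdh2, DE D2 and DE D4 at high Cdh2 with Cdh1 above the ES mean, and DEP D2 and MP D2 below the ES mean for Cdh2.

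Taking Cdh1 and Cdh2 side by side, each array was set against the ES mean for each gene. In MES D4 the change of Cdh2 exceeded that of Cdh1 by 3.41 and 3.42 on the log2 scale. In MP D4 the excess was 1.36 and 1.31, in DE D2 1.07 and 1.22, and in DE D4 0.44 and 0.29. Both DE groups thus had a Cdh2 difference from ES cells that passed without a Cdh1 difference that did, whereas MES D4 had both, in opposite directions. The excess was -0.08 and 0.12 in DEP D4, -0.29 and -0.29 in MP D2, and -0.70 and -0.80 in DEP D2, and the ES arrays themselves lay at 0.34 and -0.34. These are descriptions, and all are relative to the same 2 ES arrays, which were not sorted from feeders. ES replicate 1 had the larger mean of fibroblast markers (9.41 against 9.13) and the larger Cdh2 level (10.69 against 10.07). The part of feeder cells in these values was not tested.

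Cdh3 encodes P-cadherin, a second epithelial cadherin known from placenta and skin, whose gene lies beside Cdh1 with no protein-coding gene between them in the RefSeq table of mouse genes. Its level was 11.07 and 11.05 in DEP D4, 10.85 and 10.76 in MP D4, 10.56 and 10.37 in ES cells, and 10.34 and 10.36 in DEP D2. MES D4 was at 9.98 and 9.98, DE D2 at 9.69 and 9.40, DE D4 at 8.57 and 8.74, and MP D2 at 8.54 and 8.33. No neighbours in this order overlapped, and the order was unlike that of Cdh1, with DE D4 near the bottom and MES D4 in the middle. Cdh3 was lower in DE D4 than in DEP D4 (-2.41, SE 0.12, adjusted p = 2e-07), ES cells (-1.81, adjusted p = 4.15e-07) and MES D4 (-1.33, adjusted p = 7.32e-06). It was thus lower in the endoderm group in which Cdh1 was highest. With the days averaged, the DE minus MES difference was -0.88 and did not pass.

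Cdh3 also changed with the day in mesoderm progenitors. It was lower in MP D2 than in ES cells (-2.03, adjusted p = 5.54e-07) and than in DEP D2, where it was 1.91 higher (adjusted p = 6.58e-06). From day 2 to day 4 it rose 5.16-fold in MP (2.37, SE 0.12, adjusted p = 2e-06), and on day 4 DEP and MP differed by 0.25 (95% interval -0.0042 to 0.51). The DEP minus MP difference changed by -1.66 between the days (SE 0.17, adjusted p = 0.00038), and the DE minus DEP difference by -1.60 (SE 0.17, adjusted p = 0.00149). Without DE D2 replicate 2 the latter was -1.75 (adjusted p = 0.000993), and DE D4 then also fell below DE D2 (-1.04, adjusted p = 0.00084), which was -0.89 with all arrays. DE D2 was at -0.92 relative to ES cells, which was below the threshold. That difference was -1.02 without ES replicate 2, -1.07 without DE D2 replicate 1 and -0.78 without DE D2 replicate 2.

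Cdh6 encodes K-cadherin, a type II cadherin known from kidney and neural crest. Its promoter window is shown as the only window of a cadherin used here (RefSeq, build GRCm38.p6, 250 bases before to 50 after the transcription start, chr15:13173626-13173925, minus strand). Neither the E-box CACCTG, a sequence bound by the Snail and Zeb repressors, nor its reverse complement CAGGTG was found in it, so nothing is in capitals.
Cdh6: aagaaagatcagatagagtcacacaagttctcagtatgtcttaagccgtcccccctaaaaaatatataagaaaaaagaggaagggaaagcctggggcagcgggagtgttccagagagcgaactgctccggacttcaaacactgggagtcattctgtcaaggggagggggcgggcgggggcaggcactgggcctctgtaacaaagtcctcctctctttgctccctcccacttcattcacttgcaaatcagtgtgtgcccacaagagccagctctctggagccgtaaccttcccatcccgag

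The level of Cdh6 was 8.81 and 8.48 in MP D2, 8.50 and 8.24 in MP D4, 8.41 and 8.23 in MES D4, and 7.51 and 8.20 in DE D2. DE D4 was at 7.93 and 7.69, ES cells at 7.19 and 7.47, DEP D4 at 7.39 and 7.17, and DEP D2 at 7.09 and 7.30. The T+ groups lay above the other groups, with all 6 of their arrays above the highest Foxa2+ array, and neighbouring groups mostly overlapped. The margin was narrow, with the lowest T+ array at 8.23 (MES D4) and the highest Foxa2+ array at 8.20 (DE D2). DE D4 was at -0.51 relative to MES D4 (limma adjusted p = 0.129), which did not pass. Cdh6 was higher in MP D2 than in ES cells (1.32, SE 0.21, adjusted p = 0.00135) and than in DEP D2, which was at -1.45 (adjusted p = 0.00375). On day 4 it was higher in MP than in ES cells (1.04, adjusted p = 0.00457) and than in DEP, at -1.09 (adjusted p = 0.00636). Both day 4 differences were near the threshold: without MP D4 replicate 1 they were 0.91 and -0.96, without ES replicate 1 the first was 0.90, and without DEP D4 replicate 2 the second was -0.98. MES D4 was at 0.99 relative to ES cells (adjusted p = 0.00594), just below the threshold, and at 1.13 without ES replicate 2 and 1.08 without MES D4 replicate 2, both of which passed. DE D2 was at 0.66 relative to DEP D2, which did not pass. That difference was 1.00 without DE D2 replicate 1 and 0.31 without DE D2 replicate 2.

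Cdh11 encodes OB-cadherin, a cadherin of mesenchymal cells and bone. Its level was 11.37 and 11.42 in MES D4, 11.20 and 11.21 in ES cells, 9.98 and 10.12 in MP D4, and 9.78 and 9.82 in MP D2. DEP D2 was at 8.91 and 9.19, DE D2 at 7.78 and 9.69, DEP D4 at 7.46 and 7.91, and DE D4 at 6.97 and 7.34. The DE D2 pair covered the whole distance from DEP D4 to near MP D2, and every other pair was closer together. Cdh11 was 18.9-fold lower in DE D4 than in MES D4 (-4.24, SE 0.43, adjusted p = 2.26e-05), the largest difference of any member. At the CD24 low gate on day 4, DEP had less Cdh11 than MP (-2.36, adjusted p = 0.00408).

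Relative to ES cells, Cdh11 was lower in DEP D2 (-2.15, adjusted p = 0.00543), DEP D4 (-3.52, adjusted p = 0.000157), DE D2 (-2.47, adjusted p = 0.00135) and DE D4 (-4.05, adjusted p = 2.35e-05). In MES D4 it was at 0.19 (95% interval -0.76 to 1.14). Fibroblast markers moved with these ES comparisons: of 11 tested, 8 to 10 were lower in each sorted group than in ES cells (3.64% to 8.76% of all probe sets passed in either direction). Their part in the ES level of Cdh11 was not tested, and in the comparison of DE D4 with MES D4, which uses no ES array, 1 of the 11 was lower and 1 higher. The difference between MP D2 and ES cells (-1.41, adjusted p = 0.0494) no longer passed in 14 of 16 settings that left out 1 array, all but those that left out a DE D2 array, nor in 3 of 9 other settings. Its value was -1.39 to -1.43 in those settings.

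The spread between the DE D2 arrays entered every Cdh11 test, since all groups share 1 estimate of error. Without DE D2 replicate 2, DE D2 was at -3.43 relative to ES cells and at -1.27 relative to DEP D2 (adjusted p = 0.00249), against -0.32 with both arrays and 0.64 without replicate 1. Fitted without either of the DE D2 arrays, Cdh11 also passed as higher in MES D4 than in MP D4 (1.35, adjusted p = 0.000952, against 0.144 with both) and as lower in DEP D4 than in DEP D2 (-1.36, adjusted p = 0.00299, against 0.335). It also passed as lower in MP D4 than in ES cells (-1.16, adjusted p = 0.00048, against 0.0845). The groups of these comparisons did not overlap in their arrays. The DEP minus MP difference of Cdh11 changed by -1.62 from day 2 to day 4, which did not pass with all arrays (adjusted p = 0.303) and did without either of the DE D2 arrays (0.004) and when only the groups compared were fitted (0.0162). DE D4 was at -1.58 relative to DE D2 with all arrays, at -2.54 (adjusted p = 0.000124) without DE D2 replicate 1 and at -0.62 without replicate 2.

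Cdh5 encodes VE-cadherin, the cadherin of endothelial junctions. Its level was 8.68 and 9.09 in MP D4, 8.79 and 8.79 in MES D4, 7.46 and 7.30 in MP D2, and 6.98 and 7.77 in DE D2. DEP D2 was at 7.06 and 7.20, DEP D4 at 6.89 and 7.06, DE D4 at 6.92 and 6.92, and ES cells at 6.92 and 6.86. The 4 day 4 mesoderm arrays stood above all 12 others, DE D2 replicate 2 being the highest of the rest. Relative to ES cells, Cdh5 was higher in MP D4 (2.00, SE 0.21, adjusted p = 3.6e-05) and MES D4 (1.90, adjusted p = 4.89e-05). It rose from MP D2 to MP D4 (1.50, adjusted p = 0.00118), and on day 4 DEP lay below MP (-1.91, adjusted p = 9e-05) and DE below MES (-1.87, adjusted p = 4.79e-05). MES D4 and MP D4 differed by -0.09 (95% interval -0.55 to 0.36). The DEP minus MP difference changed by -1.66 from day 2 to day 4 (SE 0.29, adjusted p = 0.0123). When any of 4 arrays was left out it no longer passed (adjusted p from 0.0535 to 0.0623), at values of -1.45 to -1.59.

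Of 12 endothelial and blood progenitor markers, 3 were higher in MP D4 than in ES cells (5.46% of all probe sets passed). In MES D4 3 were higher and 1 lower (5.67%), with a median of 0.08 against 0.04 over all genes. These were Kdr, Etv2 and Lmo2, higher in both groups, and Pecam1, an endothelial adhesion molecule, lower in MES D4 (-1.12). The mean level of the 12 markers was 7.94 and 7.88 in MES D4 and 7.69 and 7.64 in MP D4, against 6.88 to 7.25 in the other arrays. Kdr, the receptor that marks vascular and blood progenitors, rose from 6.40 in ES cells to 9.04 in MP D4 and 10.92 in MES D4, and Etv2, a regulator of that lineage, was 2.88 higher in MES D4 than in ES cells. Kdr was higher in MES D4 than in MP D4 (1.88, adjusted p = 0.000733), a step that Cdh5 did not show. Etv2 was also higher there (1.19) and Pecam1 lower (-1.12). The part of such cells in the level of Cdh5 was not tested.

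**Figure D3:**
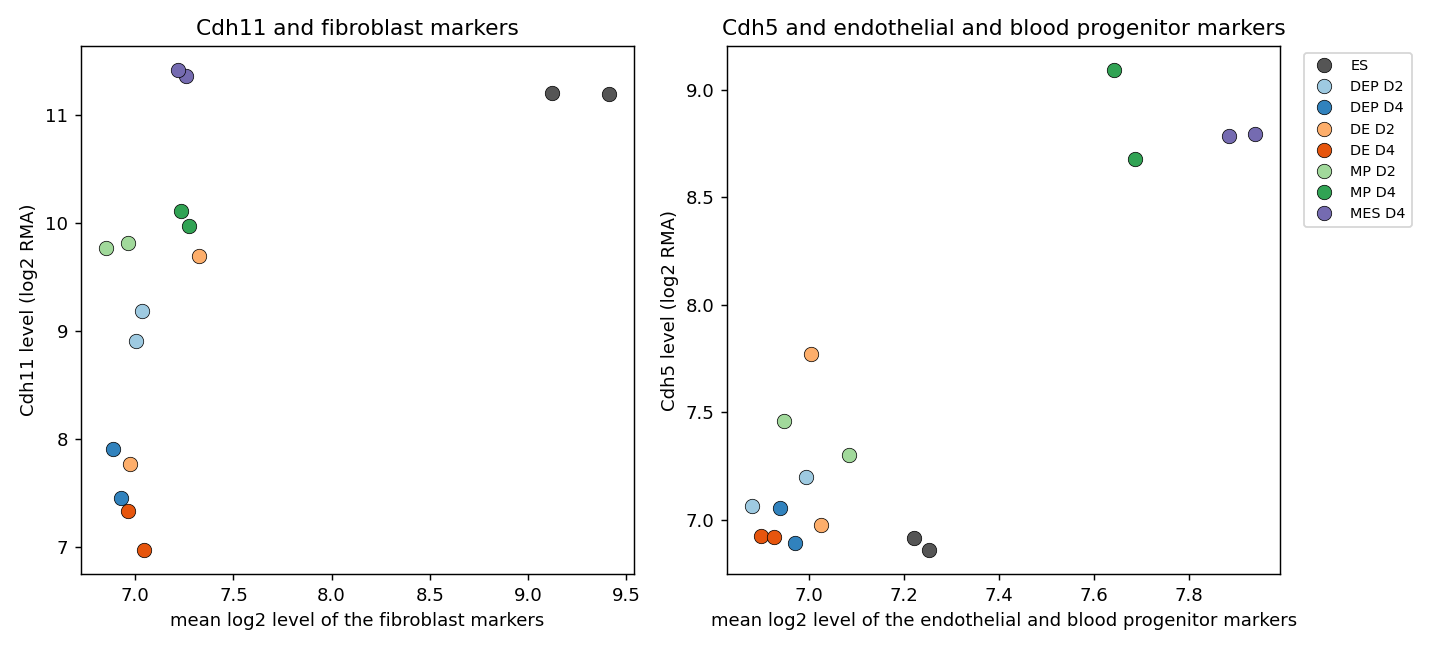
Levels of Cdh11 (left, y axis) against the mean log2 level of 13 fibroblast markers (x axis), and of Cdh5 (right) against the mean of 12 endothelial and blood progenitor markers, with a point per array. Cdh11 was about as high in MES D4 (11.37 and 11.42) as in ES cells (11.20 and 11.21). The fibroblast markers were at 9.41 and 9.13 in ES cells only. Cdh5 and the mean of the endothelial and blood progenitor markers were both highest in MP D4 and MES D4. Between these groups the marker mean was larger in MES D4 (7.94 and 7.88 against 7.69 and 7.64), whereas Cdh5 overlapped in its arrays.

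The catenins moved little. Ctnnb1 (β-catenin) was at 13.02 and 13.11 in DE D4, 12.63 and 12.68 in DE D2, 12.66 and 12.40 in DEP D4, and 12.44 and 12.45 in MP D4. DEP D2 was at 12.48 and 12.40, ES cells at 12.38 and 12.46, MES D4 at 12.32 and 12.36, and MP D2 at 12.32 and 12.26. DE D4 was separate from all other groups, and most neighbours below it overlapped. The visceral endoderm markers were highest in the same group, and over the 16 arrays their mean level and that of Ctnnb1 had a Pearson r of 0.85, a description over arrays that share groups. Relative to MES D4 the DE D4 level was 0.72 (95% interval 0.52 to 0.93, adjusted p = 0.000175), relative to ES cells 0.65 (0.44 to 0.85) and relative to DEP D4 0.53 (0.32 to 0.74). These intervals lie above 0 and below the 2-fold threshold.

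Ctnnd1 (p120-catenin), which stabilizes cadherins at the membrane, spanned 0.45 from DE D4 (11.69 and 11.84) to DEP D2 (11.38 and 11.25). Ctnna1 (αE-catenin) spanned 0.43 from DE D2 (11.72 and 11.57) to MP D2 (11.32 and 11.12). For both, most neighbouring groups overlapped, and the largest difference between groups compared was 0.43 for Ctnnd1 and 0.35 for Ctnna1, both between DE D4 and DEP D4. Of the 72 catenin tests, interactions included, 18 had an unadjusted p below 0.05 and 6 an adjusted p below 0.05, 4 of them in Ctnnb1 and 2 in Ctnnd1. The other settings run for them, apart from the test without a fold threshold, did not change any catenin call.

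Ctnna2 (αN-catenin) is the neuronal α-catenin. It was at 5.94 to 6.45 in the 16 arrays, below the median of every array (7.42 to 7.49), and its group means spanned 0.20. At this signal no difference was detectable. Its promoter window (RefSeq, GRCm38.p6, chr6:77979618-77979917, minus strand) is shown because, of 6 windows of members used here, it was the 1 that held the E-box, in capitals.
Ctnna2: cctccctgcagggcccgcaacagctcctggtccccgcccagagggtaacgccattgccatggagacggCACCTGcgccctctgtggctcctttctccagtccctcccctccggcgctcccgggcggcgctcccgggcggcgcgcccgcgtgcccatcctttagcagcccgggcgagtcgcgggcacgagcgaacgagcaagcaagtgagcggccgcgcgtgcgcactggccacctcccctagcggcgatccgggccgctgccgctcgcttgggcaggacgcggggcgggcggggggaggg

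The first base of the E-box lies at position -182 relative to the start site. The 6 windows belong to 4 of the 10 members (Cdh6, Ctnnb1, Ctnnd1 and Ctnna2), and 20.2% of 32851 windows of all genes held CACCTG or CAGGTG. A match is a description of letters and not of a binding site.

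**Figure D4:**
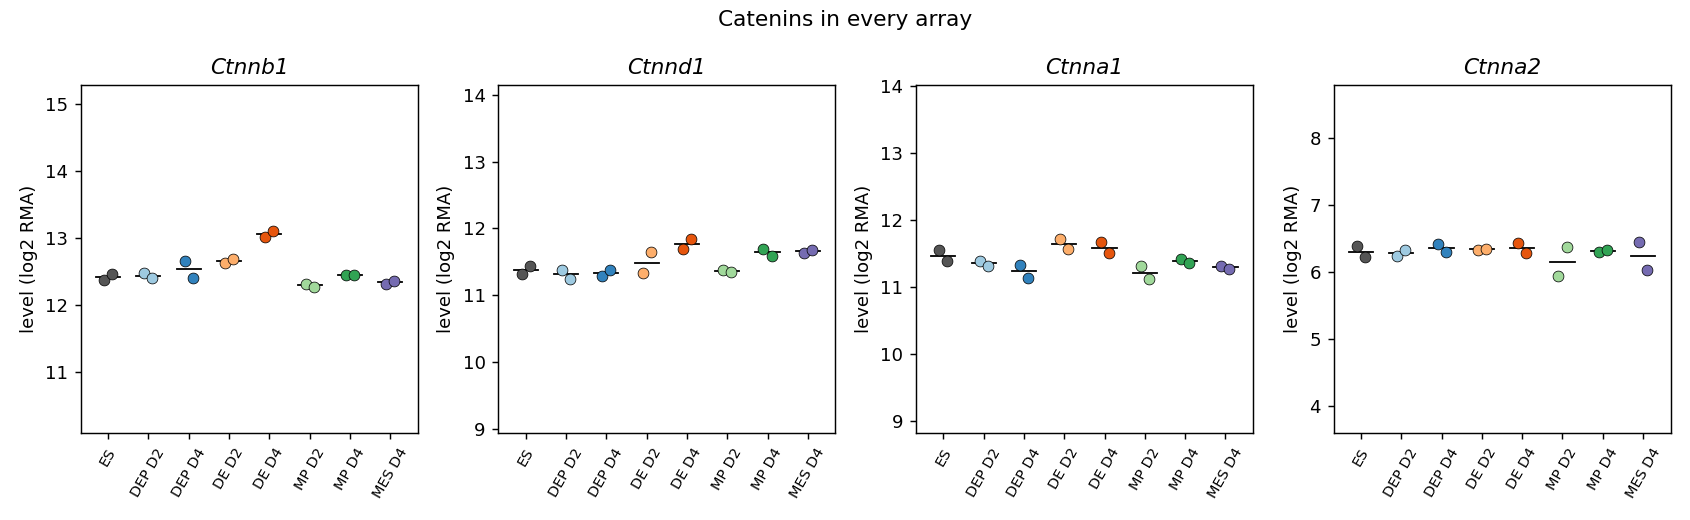
Levels of the 4 catenins in every array (y axis, log2 RMA, with the same span as the cadherin panels) by group (x axis), with a point per array and a line at the mean. Group means span 0.77 for Ctnnb1 and 0.20 for Ctnna2.

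The comparisons can also be read by counts, against the share of all 32000 probe sets that passed in the same comparison. Relative to ES cells, 1 of 10 members passed in DEP D2 (3.64% of probe sets) and 1 in DEP D4 (4.51%), Cdh11 in both. In DE D2 2 members passed (6.65%) and in DE D4 3 (8.76%), Cdh2 being higher and Cdh11 lower in both and Cdh3 lower in DE D4. In MP D2 3 passed (4.1%), with Cdh6 higher and Cdh3 and Cdh11 lower. In MP D4 2 passed (5.46%), Cdh5 and Cdh6, both higher. In MES D4 3 passed (5.67%), with Cdh2 and Cdh5 higher and Cdh1 lower. All 7 comparisons share the 2 ES arrays.

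Between lineages, 4 of 10 members passed in DE D4 against MES D4 (5.88% of probe sets), Cdh1 being higher in DE and Cdh3, Cdh5 and Cdh11 lower. At the CD24 low gate, 2 members passed between DEP and MP on day 2 (0.903%), Cdh3 being higher and Cdh6 lower in DEP. On day 4, 3 passed (3.08%), Cdh5, Cdh6 and Cdh11, all lower in DEP. Within endoderm, 1 member passed between DE and DEP on day 2 (2.8%), Cdh2, and 1 on day 4 (4.8%), Cdh3. Within mesoderm 1 passed between MES D4 and MP D4 (1.1%), Cdh1. With so few members each count turns on single genes.

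Over time, 3 of 10 members rose from MP D2 to MP D4 (1.79% of probe sets), Cdh2, Cdh3 and Cdh5. In DEP 0 of 10 passed by limma between the days (0.294%), where 3 members had an unadjusted p below 0.05, and in DE 0 of 10 (1.38%), where 6 had. The change of the DEP minus MP difference with the day passed for 2 members (1.38%), Cdh3 and Cdh5, and that of the DE minus DEP difference for 2 (0.731%), Cdh2 and Cdh3.

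**Figure D5:**
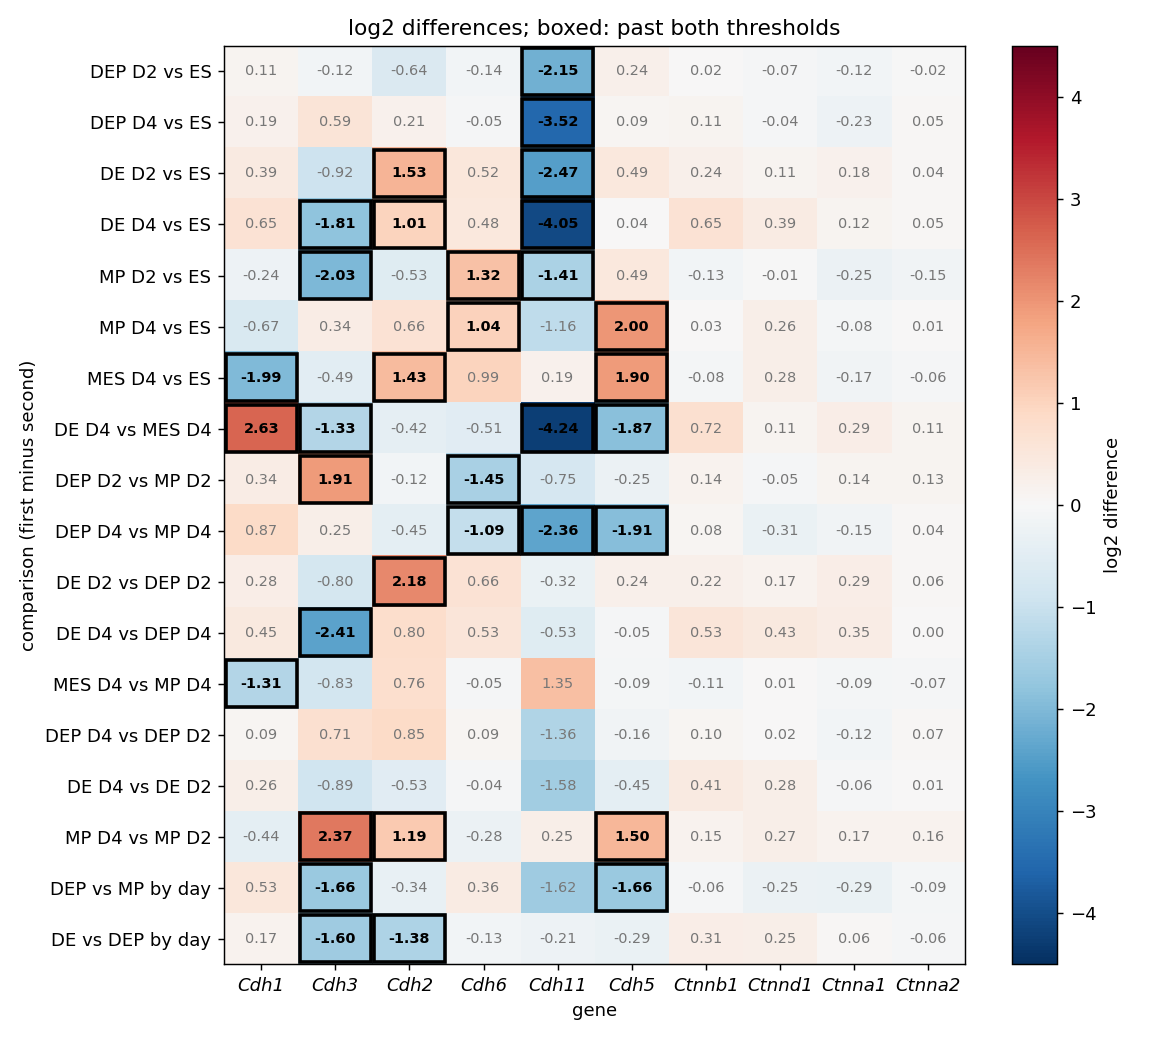
Log2 difference of each member (x axis) in each of 18 comparisons (y axis, first group minus second; "by day" is the day 4 difference minus the day 2 difference), with colour for the size and a box around differences past both thresholds. Boxes lie only in the 6 cadherin columns.

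Repressors of E-cadherin, zinc finger and helix-loop-helix factors that bind its promoter, were lower in DE D4 than in MES D4 for 5 of 6 genes tested (median -1.99, against 0.02 over all genes, with 5.88% of all probe sets passing). These were Zeb2 (-3.03, adjusted p = 9.08e-07), Zeb1 (-2.69), Snai1 (-2.48) and, by less, Twist1 (-1.50) and Snai2 (-1.18). The member Cdh1 differed the other way in that comparison. Relative to ES cells, Snai1 and Zeb2 were higher in MES D4 (2.18 and 1.40) and Snai2 was lower (-2.07), whereas in DE D4 Snai2, Zeb1 and Zeb2 were lower (-3.25, -2.44 and -1.63). Snai2 was at 10.20 and 9.65 in ES cells and at 6.67 to 8.16 in sorted arrays, where the fibroblast markers were also lower. Zeb1 was lower than in ES cells in DEP D2 (-2.15), DEP D4 (-1.69), DE D2 (-2.18) and MP D2 (-1.70) as well. In MP D4 and MES D4 it did not pass (-0.32 and 0.25). The part of feeder cells in these ES levels was not tested. From MP D4 to MES D4, a step at which the Cdh1 difference passed, Snai1 was higher (1.39, adjusted p = 0.000363), 1 of 6 repressors to pass (1.1% of all probe sets). The decline of Cdh1 was not confined to that step. In MP D4 it was already at -0.67 relative to ES cells (limma adjusted p = 0.000244), short of the fold threshold only. Repressors also passed where Cdh1 had a difference below 0 that did not pass. In MP D2 relative to ES cells, Snai1 was higher (1.09) and Snai2 and Zeb1 lower (-2.78 and -1.70), with Cdh1 at -0.24. From MP D2 to MP D4 Zeb1 rose (1.38), with Cdh1 at -0.44 (limma adjusted p = 0.0135), again short of the fold threshold only.

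Of 16 other classical and atypical cadherins, 15 were tested. In DE D4 against MES D4 (5.88% of all probe sets), 3 passed, all lower in DE: Cdh4 (R-cadherin, -2.10, adjusted p = 7.86e-07), Cdh10 (-1.23) and Cdh20 (-1.14), and the median of the list was 0.03. Cdh4, a close relative of N-cadherin, was at 9.86 and 9.94 in MES D4 and at 7.73 and 7.86 in DE D4. It was lower in DE D4 than in DEP D4 (-1.14, adjusted p = 0.00015), a comparison in which Cdh2 was at 0.80. Cdh9 was lower in every sorted group than in ES cells (-1.98 to -2.45).

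Among 16 other catenins and junction partners, 2 were higher and 2 lower in DE D4 than in MES D4 (median 0.27, against 0.02 over all genes, with 5.88% of all probe sets passing). Jup (γ-catenin), which can take the place of β-catenin at junctions, was at 10.89 and 10.76 in DE D4 and at 9.79 and 9.86 in MES D4. Its difference of 1.00 lay at the threshold (adjusted p = 0.000256), and it was lower in MES D4 than in ES cells (-1.19, adjusted p = 7.55e-05), as Cdh1 was. Lima1 (EPLIN), which links α-catenin to actin, was higher in DE D4 than in MES D4 (3.10, adjusted p = 6.52e-09). Nectin1 and Nectin3, adhesion receptors that sit beside cadherins, were lower (-1.41 and -1.42). Nectin1 was also lower in DE D4 than in DEP D4 (-2.69, adjusted p = 1.37e-07), as Cdh3 was. Ctnnd2 (δ-catenin), a relative of Ctnnd1, was higher in DEP D4 than in MP D4 (1.57) and lower in DE D4 than in DEP D4 (-2.06). Of 11 genes of cadherin turnover, processing and β-catenin destruction tested, including Adam10, Apc and Gsk3b, 0 passed by limma in any of the 18 comparisons, and 63 of 198 tests had an unadjusted p below 0.05. With 0.294% to 8.76% of all probe sets passing, a count of 0 among 11 genes says little about them.

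Genes whose 8 group means followed a cadherin most closely were sought among 3784 genes that also spanned more than 1. For Cdh1 these were Tom1l1 (Pearson r = 0.996), Ap1m2 (0.979), the epithelial subunit of an adaptor complex that sorts proteins to the basolateral membrane, and Ell3 (0.972). For Cdh2 they were Vgll4, Frmd4b and Mall (0.947 to 0.953), and for Cdh5 they were Efnb1, Limch1 and Hapln1 (0.979 to 0.984). Car3, Pfkp and Alpl, the tissue-nonspecific alkaline phosphatase, followed Cdh11 (0.948 to 0.974). Cdh6 was followed by Eola1, Tmem185a and Cpxm2 (0.897 to 0.938). Cdh3 had no neighbour above 0.866 (Gstm6, then Acss1 and Necab1), the lowest best match of the 6 cadherins. With 8 points per gene and so many candidates, such values are descriptions of likeness in these arrays.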

How the data were processed

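Expression was measured with 2 biological replicates in each of 8 groups on Affymetrix arrays (Mouse Gene ST 1.0). The deposited values are log2 intensities that the authors normalized by RMA with oligo 1.48.0, 35556 probe sets per array, with no genome build named for them here. RMA includes quantile normalization, so shifts common to most genes are removed. The number of arrays limits the precision. Probe sets were named from the platform annotation: of the 32000 probe sets of highest mean that were tested, 20427 carried 1 gene symbol, 1400 several and 10173 none. Cdh11 is also named on 3 probe sets with several symbols, which were not used. Tests used limma 3.58.1 in R 4.3.3, with 8 group means, no covariate, no replicate block and 95% intervals, for 18 comparisons. The tests were checked on simulated data. Groups came from the sample labels, and no 2 arrays held identical values.

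Members and gene lists were chosen with earlier results of these data known. Genes were named by rule: the 10 members, the 2 sorted genes, the 3 closest patterns of each member spanning more than 1, and up to 4 genes of each list with the largest differences that passed, with further list genes chosen after their values were seen. Lists held other cadherins, junction partners, turnover genes, repressors and markers of fibroblast, endothelial, visceral endoderm, neural and naive pluripotent cells. Neural markers were at a mean of 7.15 to 7.78 in the sorted arrays. List genes that could not be matched to a probe set are not reported here. Alternatives were another number of probe sets, trended or robust variances, a replicate block, other centring, no fold threshold, only the groups compared, days averaged and each array left out. The labels give no batch, and the values for the reporter gene T were not analysed here.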

Additional observations from a re-analysis of the deposited data

Results flagged for a closer look

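For 3 of the cadherins, the difference between 2 groups was not the same on day 4 as on day 2, as tested by limma on the change itself. Cdh3 stood out in both comparisons. Its DEP minus MP difference changed by -1.66 (from 1.91 on day 2 to 0.25 on day 4), and its DE minus DEP difference by -1.60 (from -0.80 to -2.41). The DEP minus MP difference of Cdh5 changed by -1.66 (from -0.25 to -1.91), and the DE minus DEP difference of Cdh2 by -1.38 (from 2.18 to 0.80). Both Cdh3 changes passed with any 1 array left out, and those of Cdh5 and Cdh2 did not. The DEP minus MP difference of Cdh11 changed by about as much (-1.62, adjusted p = 0.303), and it passed without either DE D2 array (0.004) and with only the groups compared (0.0162). Groups of 2 arrays were too small to be searched for single outlying arrays.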

How the results depend on the processing

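Of 180 differences of members, the 66 that passed in at least 1 setting were followed for their direction. Cdh5 and Ctnna2 are not among the 16000 probe sets of highest mean. Averaging the days applies to 3 comparisons, and MES enters with day 4 only. With another number of probe sets, other variances, centring or a replicate block, the counts of members that passed were mostly as reported. Testing 16000 probe sets gave 1 member in MP D4 against ES cells, 1 in DE D4 against DE D2 and 1 for the change of DEP minus MP with the day; the first and the last had counted Cdh5, which was not tested there. A variance trend, centring on the 75th percentile and the replicate block each gave 1 in DE D4 against DE D2, which was Cdh11 (-1.58). Fitting only the groups compared gave 1 in DE D2 against ES cells and 2 in MES D4 against MP D4. Without the fold threshold the counts relative to ES cells were 2 in DEP D2, 2 in DEP D4, 4 in DE D2, 6 in DE D4, 4 in MP D4 and 5 in MES D4. They were 2 for DE D2 against DEP D2, 5 for DE D4 against DEP D4, 3 for MES D4 against MP D4, 2 for DEP D4 against DEP D2 and 2 for DE D4 against DE D2. That setting adds changes below 2-fold by construction; for the others, Cdh5 apart, the cause was not tested.

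Replicate numbers showed no pairing common to all arrays. Over 28 pairs of groups the correlation of deviations was -0.20 to 0.25, over 0.1 in 8 and under -0.1 in 4. It was 0.20 between MP D4 and MES D4 and -0.13 between DEP D2 and DE D2. Pairing within single pairs of groups was not tested. The replicate block changed no other count of members by more than 1.5 times.

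With 1 array left out the counts ranged from 1 to 3 in MP D4 against ES cells, 1 to 2 in DE D2 against DEP D2, 1 to 2 in MES D4 against MP D4, 0 to 1 in DEP D4 against DEP D2, 0 to 1 in DE D4 against DE D2, 1 to 3 for the change of DEP minus MP with the day and 1 to 2 for that of DE minus DEP. Where that left a single array in a group, it was assumed to vary like the other groups. Of the 66, 1 value turned its sign: Cdh11 in DE D2 against DEP D2, -0.32 with all arrays, was 0.64 without F+CD24high D2 (DE D2) replicate 1 and -1.27 without replicate 2. Taking the mean of all probe sets per gene was not run, since each member has 1. Having 2 arrays per group, and a low signal for Ctnna2, limit what could be detected.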
